A study of Mus musculus with 27 samples.

Results

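Stable open regions with Runx2 only are stretches of accessible chromatin in mouse mK4 cells that stayed open when Runx1 was deleted, carried no Runx1 peak in control cells and carried a Runx2 peak in control or Runx1KO cells. They were chosen from the authors' lists of ATAC-seq regions and ChIP-seq peaks by an overlap of at least 1 bp. Of the 37481 regions in the stable list, 6716 met the rule (17.9%, Wilson 95% interval 17.5 to 18.3%), while 3843 stable regions carried a Runx1 peak and 26922 carried no Runx peak. The series holds 55649 open regions in all. In the regions that closed in Runx1KO cells 1266 carried Runx2 only, and in those that opened 339 did.

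Runx1, Runx2 and Runx3 are transcription factors that share the Runt DNA-binding domain, bind as heterodimers with Cbfb and recognise the sequence TGTGGT. Runx2 is best known as the master regulator of osteoblasts, and Runx1 for its part in blood formation, yet their Runt domains read the same letters. A region held by one factor and not the other is therefore of interest for how related factors divide the genome. Open chromatin is found by ATAC-seq, in which a transposase cuts DNA that is not packed in nucleosomes, and bound sites are found by ChIP-seq, in which an antibody pulls down the protein with its DNA.

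mK4 is a cell line derived from the metanephric mesenchyme of the mouse kidney, the tissue that gives rise to the nephron. Control cells are the wild-type parental line, grown in serum medium to near confluency. Runx1KO cells are CRISPR/Cas9 sub-lines of it that lack the exon with the start codon of Runx1. Each assay was made on 3 libraries per cell line. The number of sub-lines sequenced is not given in the sources used here, so genotype and clone cannot be told apart. The peak lists were called by the authors on combined or shared replicates and hold no value per replicate. Intervals on shares of regions and on odds ratios therefore cover counting error over regions only, and neighbouring regions are not independent.

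The DNA under the Runx2 summit, the base with the highest ChIP-seq signal, is printed for 3 regions of high Runx2 fold enrichment in each state of binding. The control-only region with the highest fold, 7.33, is not among them, and the highest control-only fold printed is 6.66. The printed sequences show how differently strong Runx2 sites can look. All are from mm9, plus strand, 5′ to 3′, and span 50 bases on each side of the summit, except that the first ends where the untranslated region of Dnajc10 begins. Capitals mark TGTGGT, its GC form TGCGGT, or the reverse complement of either. The first group had a Runx2 peak in both lines, the second in control only and the third in Runx1KO only.
Dnajc10, both lines, chr2:80155574-80155622: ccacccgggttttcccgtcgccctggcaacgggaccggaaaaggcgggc
Bag5, both lines, chr12:112970793-112970892: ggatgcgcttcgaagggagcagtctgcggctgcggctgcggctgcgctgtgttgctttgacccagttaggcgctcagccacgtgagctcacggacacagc
Nptn, both lines, chr9:58428773-58428872: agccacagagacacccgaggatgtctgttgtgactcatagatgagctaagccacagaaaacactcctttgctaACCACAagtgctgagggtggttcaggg
Wwc1, control only, chr11:35747014-35747113: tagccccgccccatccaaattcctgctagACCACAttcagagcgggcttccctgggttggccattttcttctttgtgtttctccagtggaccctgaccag
Mxra7, control only, chr11:116669452-116669551: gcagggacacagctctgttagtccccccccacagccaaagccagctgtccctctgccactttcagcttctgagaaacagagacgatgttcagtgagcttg
Asb2, control only, chr12:104579604-104579703: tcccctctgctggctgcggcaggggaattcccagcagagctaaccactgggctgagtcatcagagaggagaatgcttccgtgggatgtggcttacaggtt
Cited2, Runx1KO only, chr10:17352971-17353070: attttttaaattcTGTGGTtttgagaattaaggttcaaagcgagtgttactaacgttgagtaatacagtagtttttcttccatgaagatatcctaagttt
Myo1h, Runx1KO only, chr5:114807012-114807111: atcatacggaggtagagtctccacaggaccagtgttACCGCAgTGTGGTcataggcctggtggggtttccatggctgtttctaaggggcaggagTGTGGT
Pde4d, Runx1KO only, chr13:110612764-110612863: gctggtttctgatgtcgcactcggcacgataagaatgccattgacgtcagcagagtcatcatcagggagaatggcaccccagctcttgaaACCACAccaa

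The strongest Runx2-only region of all, at chr2:80155211-80156357 over the start of Dnajc10 (a chaperone of the endoplasmic reticulum), held 0 matches to either form of the Runx letters in its 1147 bp. Its Runx2 fold enrichment was 13.1 in control and 12 in Runx1KO cells. The next, at chr12:112970299-112971231, reached 11.0 and 9.99. It lies 723 bp from the annotated start of Gm15996 and 19297 bp from that of Bag5, the nearest gene with an expression value. By contrast, the region at chr5:114806584-114807528 in Myo1h, with a fold of 8.25 in Runx1KO cells and no peak in control, held 3 matches in the 100 bases centred on its summit and 4 in the whole region. The intronic regions of Wwc1 (fold 6.66 in control only) and of Pde4d (fold 6.5 in Runx1KO only) held 1 match each in that window. In 3 of the 9 printed sites, those named for Nptn, Mxra7 and Cited2, the summit fell outside the open region, which a Runx2 peak touched only with its flank, and a Runx1 peak lay 421, 8 and 40 bp from the region. Such cases were rare. The summit lay inside the region in 6575 members (97.9%), and a Runx1 peak lay within 500 bp of 43. The smallest overlap with a Runx2 peak was 3 bp, 18 members overlapped by under 20 bp, and 9 stable regions without a Runx peak had a Runx2 peak within 20 bp of their edge.

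Runx2-only regions were mostly promoters. The middle of 4172 of the 6716 (62.1%, interval 61.0 to 63.3%) lay within 1 kb of an annotated transcript start, 1417 (21.1%) were intergenic, 1039 (15.5%) intronic and 88 (1.31%) exonic. The promoter share was close to that of stable regions with Runx1 (58.4%; odds ratio 1.17, 95% interval 1.08 to 1.26) and far above that of stable regions without a Runx peak (19.2%; odds ratio 6.89, interval 6.50 to 7.30). Regions that closed in Runx1KO cells and carried Runx2 only were at promoters in 10.7%, against which the odds ratio of the stable ones was 13.6 (interval 11.3 to 16.4). Runx2-only regions thus lay mostly at promoters in the stable list and mostly away from them in the closing list. In the opening list 22.4% of them were at promoters. The promoter share of the other closing and opening regions was not measured, so whether this contrast is particular to Runx2 was not tested.

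**Figure D1:**
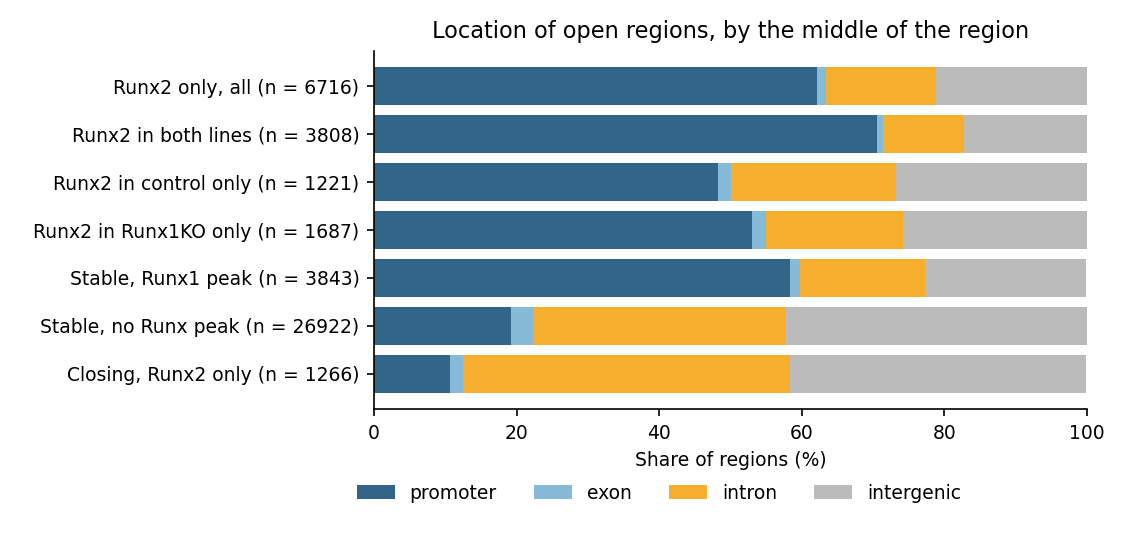
Share of regions (x axis, percent) by location for each class of open region (y axis, with its n), where colours stand for promoter, exon, intron and intergenic. Promoters make up 62.1% of the Runx2-only regions and 70.6% of those with Runx2 in both lines, against 19.2% of stable regions without a Runx peak.

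The regions were also wide and rich in G and C. Their median width was 971.5 bp (quartiles 694 and 1266), near the 997 bp of stable regions with Runx1 and above the 522 bp of those with no Runx peak. Their median GC content was 58.2%, against 57.2% and 51.2% in these classes. Within the Runx2-only regions the promoter members were wider (1109.5 bp) and richer in GC (62.1%) than the others (684.5 bp and 50.9%). Width and GC content thus moved with promoter location, and their part in the occupancy was not tested.

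A Runx2 peak was present in both cell lines at 3808 of the Runx2-only regions (56.7%, interval 55.5 to 57.9%), in control cells only at 1221 (18.2%) and in Runx1KO cells only at 1687 (25.1%). Stable regions with Runx1 that also carried Runx2 had it in both lines far more often, at 3517 of 3759 (93.6%; odds ratio 11.1, interval 9.66 to 12.8). Closing regions with Runx2 only had it in both lines at 521 of 1266 (41.2%), and the odds ratio of the stable ones against these was 1.87 (interval 1.66 to 2.12). More Runx2-only regions carried the peak in Runx1KO cells alone than in control cells alone. The Runx1KO list is the shorter, with 15608 peaks against 17595, but its median −log10 q at regions with both was higher (6.23 against 5.04). Whether both lists were equally sensitive was not tested.

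Runx2 fold enrichment is given first for the regions with a peak in both lists, a selection on the presence of both peaks that leaves out the members with a peak in 1 line. The median fold enrichment over local background, as MACS2 gives it at the summit, was 4.17 in control (quartiles 3.66 and 4.89) and 4.14 in Runx1KO cells (3.65 and 4.88) for regions with a peak in both. The log2 ratio of Runx1KO over control had a median of -0.018 (quartiles -0.19 and 0.15, range -1.20 to 1.17). It stayed within 1.5-fold at 3699 of 3808 regions (97.1%), with 51 above that limit in Runx1KO and 58 in control cells. Across these regions the log2 folds of the 2 lists had a Pearson r of 0.64 and a Spearman rho of 0.58, which is a description, since both come from the same regions and the same caller. Regions with a peak in only 1 line had weaker peaks, with medians of 3.66 in control only and 3.65 in Runx1KO only. The median −log10 q was 5.04 and 6.23 in the control and Runx1KO lists at regions with both, and 3.62 and 4.13 at regions with 1. A missing peak says that the caller's limit was not passed, and how much Runx2 signal lay under that limit was not tested. Stable regions with Runx1 had higher Runx2 folds, with medians of 5.72 in control and 5.49 in Runx1KO cells.

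**Figure D2:**
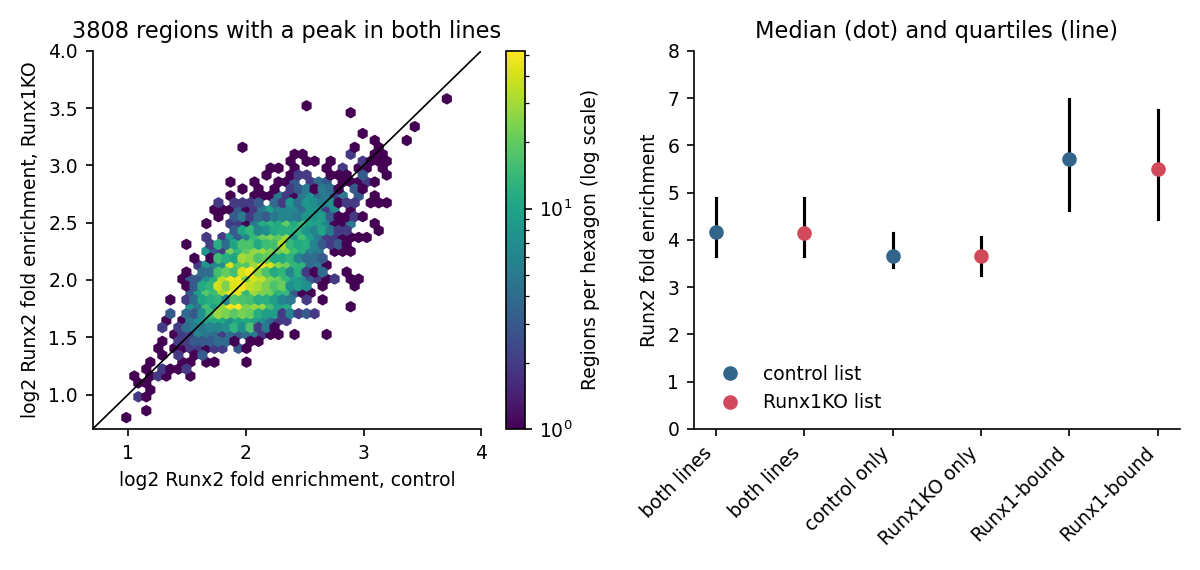
Left, log2 Runx2 fold enrichment in control (x axis) and Runx1KO cells (y axis) for the 3808 regions with a peak in both lines, with colour for the number of regions and a line of equal values. Right, median (dot) and quartiles (line) of the fold by state of binding and list; the Runx2-only medians lie between 3.65 and 4.17, below the 5.72 and 5.49 of stable regions with Runx1.

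Binding in both lines went with promoters. Of the regions with Runx2 in both lines 70.6% were at promoters, against 48.3% of those in control only (odds ratio 2.57, interval 2.25 to 2.93) and 53.0% of those in Runx1KO only (odds ratio 2.13, interval 1.89 to 2.40). The 2 kinds of single-line region differed less from each other (odds ratio 1.21, interval 1.04 to 1.40, Runx1KO only over control only). Away from promoters, 1120 of 2544 regions (44.0%) had Runx2 in both lines, against 2688 of 4172 (64.4%) at promoters. This state needs a peak of each list on the region, and those peaks need not overlap each other. Promoter members were wider (median 1109.5 against 684.5 bp) and had higher median folds in control (4.15 against 3.92). The part of width and fold in this contrast was not tested.

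The median distance of a member to the nearest Runx1 peak was 52906 bp, against 57964 bp for stable regions without a Runx peak, and 899 members (13.4%) had a Runx1 peak within 10 kb. Overlap with a Runx1 peak was barred by the rule, so these distances are a description.

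The letters TGTGGT were scarce at promoter members and common away from promoters. Motifs were searched on both strands as exact letters, each counted on its own with no masking of overlaps. Within 100 bases centred on the summit of the strongest Runx2 peak, 10.5% of promoter members (interval 9.56 to 11.4%) and 31.3% of the others (29.6 to 33.2%) held the motif. The GC form TGCGGT was held by 10.8% and 7.78%, and either form by 20.7% and 38.2%. Stable regions that carried both Runx1 and Runx2 held either form within 100 bases of their Runx2 summit in 43.0% at promoters and 59.6% elsewhere, so that the odds ratio of the Runx2-only regions was 0.346 (interval 0.309 to 0.387) and 0.419 (0.368 to 0.477). Sites with only a Runx2 peak held the Runx letters less often than sites with both peaks, in either location, and for each form taken alone. A missing Runx1 peak says only that none was left in the authors' list. Runx2 folds were also lower at the Runx2-only regions, with medians of 4.09 in control and 3.94 in Runx1KO cells. Those of stable regions with Runx1 were 5.72 and 5.49, and the part of the fold in the motif shares was not tested.

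Against stable regions free of Runx peaks, the Runx letters were more frequent in the Runx2-only regions away from promoters. The first shares are for the 200 bases around the middle of the region, a window of the same length in every class. The window takes in a smaller part of the members, whose median width was 971.5 bp against 522 bp. In it 15.7% of members held TGTGGT against 12.7% of regions without a Runx peak (odds ratio 1.28, interval 1.19 to 1.38). Away from promoters the shares were 29.6% and 14.1% (odds ratio 2.57, interval 2.34 to 2.82). At promoters they were 7.14% and 6.82% (odds ratio 1.05, interval 0.896 to 1.23), a difference within counting error, and for either form the odds ratio was 1.51 (interval 1.34 to 1.71). This window often misses the bound site, since 36.1% of the Runx2 summits lay within 100 bp of the middle. In the whole region the promoter odds ratio of TGTGGT was 1.71 (interval 1.57 to 1.86), where members are also the wider regions. In the 200-base window at promoters the GC form was held by 8.08% (interval 7.29 to 8.95%) against 3.55% (3.08 to 4.09%). The split by location was added after the data had been seen.

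Where the letters occurred they gathered at the summit. Away from promoters TGTGGT was found 78.1 times per 1000 regions and 20 bases within 40 bp of the summit, and 18.7 times between 120 and 200 bp from it, a ratio of 4.17. At promoters the densities were 24.4 and 7.10, a ratio of 3.43. For TGCGGT the ratios were 6.55 and 4.52. The AP-1 letters TGACTCA, bound by Fos and Jun dimers, had ratios of 2.08 and 1.77, and those of NF-Y (CCAAT), a factor of many promoters, 0.844 and 1.03. The rise towards the summit was thus smaller at promoters for both Runx forms. The density of TGTGGT at the summit was lower at promoters, and that of TGCGGT was higher there, at 23.3 against 17.7 per 1000 regions and 20 bases.

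**Figure D3:**
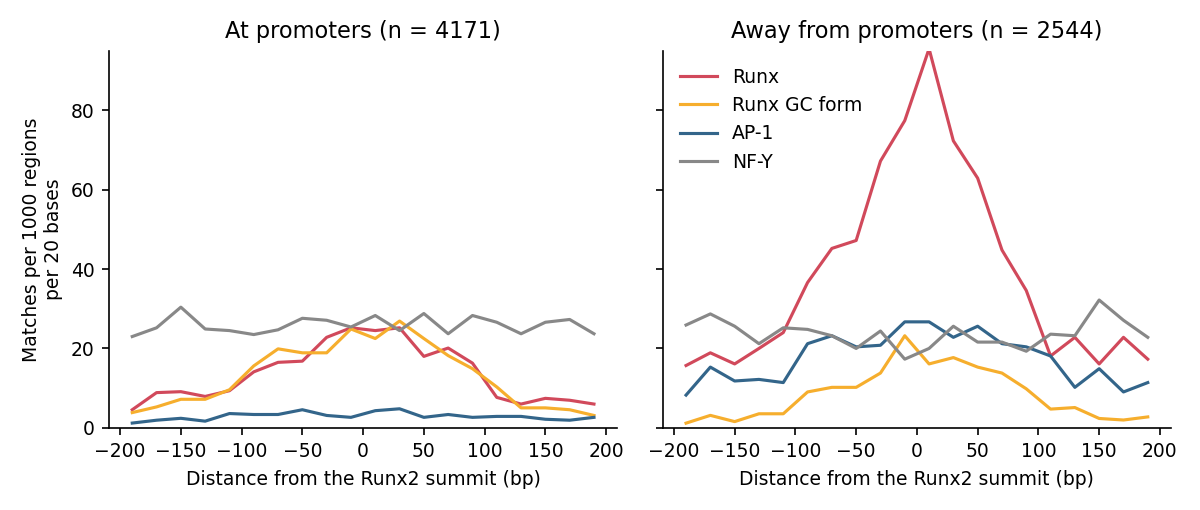
Matches per 1000 regions and 20 bases (y axis) by distance from the Runx2 summit (x axis, bp), at promoters (left) and away from them (right), with 1 line per motif. The Runx line away from promoters reaches 95.5 near the summit and falls to 15.7 in the flanks, that at promoters reaches 25.2, and the NF-Y lines stay flat.

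The share with the motif rose with Runx2 fold enrichment. When all members were divided into 4 groups of equal size by the higher of their folds, the share of promoter members with TGTGGT at the summit was 8.41% in the lowest group (fold up to 3.61) and 14.1% in the highest (fold from 4.76). Away from promoters it was 24.2% in the lowest and 41.5% (interval 37.4 to 45.7%) in the highest. For either form the highest group reached 29.2% at promoters and 53.5% away from them, against 14.4% and 27.8% in the lowest. Even in the highest group most promoter members held neither form within this window, as in the Dnajc10 and Bag5 sequences. The AP-1 letters did not follow the fold, at 9.44% in the lowest and 11.3% in the highest group away from promoters, with overlapping intervals (7.56 to 11.7% and 8.86 to 14.2%).

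**Figure D4:**
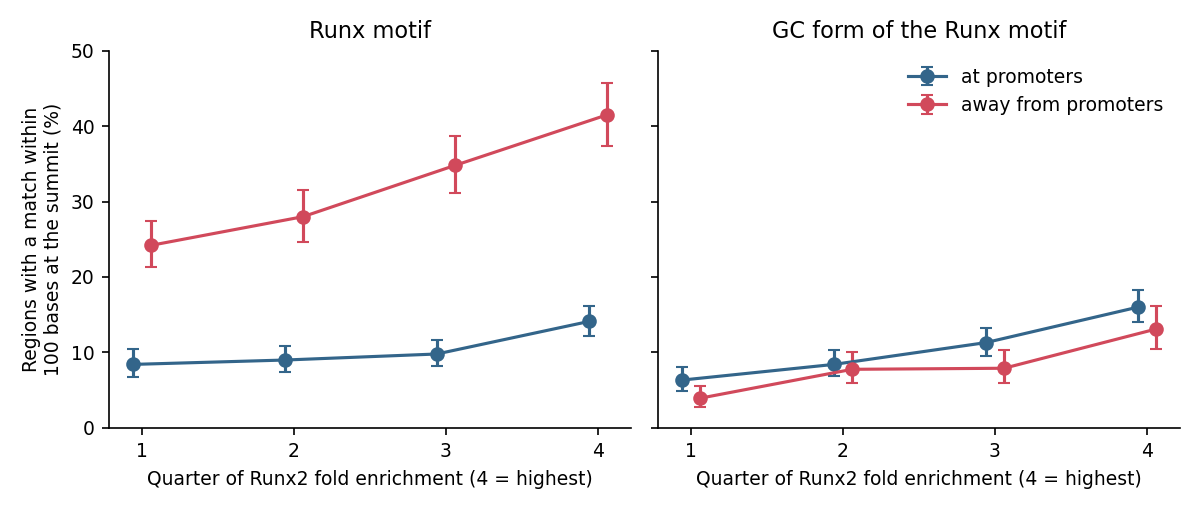
Share of regions with the Runx motif (left) or its GC form (right) within 100 bases at the summit (y axis, percent) by group of Runx2 fold enrichment, with members divided into 4 equal groups (x axis), with 95% Wilson intervals, for members at promoters and away from them. Away from promoters the Runx motif goes from 24.2% in the lowest to 41.5% in the highest group, and at promoters from 8.41% to 14.1%.

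Other motifs set the 2 locations apart. In the 200 bases around the middle, the Sp/Klf letters GGGCGG, found in many GC-rich promoters, were held by 56.5% of promoter members and 12.4% of the others. Ets letters (CCGGAAG) were held by 10.4% and 2.32%, AP-1 letters by 2.11% and 19.2%, and Tead letters (GGAATG) by 6.40% and 15.1%. Set against stable regions without a Runx peak in the same location, AP-1 letters in this window were fewer in the Runx2-only regions, with an odds ratio of 0.273 at promoters (interval 0.216 to 0.345) and 0.684 elsewhere (0.617 to 0.759), while Sp/Klf letters were more frequent (2.06, interval 1.89 to 2.23, and 1.89, interval 1.66 to 2.15). Over the whole region the AP-1 odds ratios were 0.768 (interval 0.688 to 0.859) at promoters and 1.01 (0.928 to 1.10) elsewhere, so the distal difference was seen in the central window and not in the whole region. Against stable regions with Runx1 in the same location the AP-1 odds ratios were 0.747 (interval 0.538 to 1.04) and 0.891 (0.762 to 1.04), and those of Sp/Klf 1.07 (0.965 to 1.19) and 1.05 (0.869 to 1.28), all within counting error. In the 100 bases at the Runx2 summit, compared with regions that carry both factors, the AP-1 odds ratio away from promoters was 0.689 (interval 0.570 to 0.833).

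The letters of Ctcf, the factor that anchors chromatin loops, separated the states of binding. Away from promoters they were held within 200 bases by 6.25% of regions with Runx2 in both lines (interval 4.98 to 7.82%), 6.56% of those in Runx1KO only (5.04 to 8.50%) and 2.06% of those in control only (1.21 to 3.49%). The odds ratio of Runx1KO only over control only was 3.34 (interval 1.80 to 6.18). Around the summit the shares were 4.82%, 4.41% and 0.951%, and in the whole region 10.8%, 10.7% and 4.75%. Distal stable regions with Runx1 held the Ctcf letters in 2.19% of the 200-base windows and those without a Runx peak in 5.51%. The control-only regions thus had a share near that of Runx1-bound regions, and the other 2 states a share near that of regions free of Runx. The Runx letters did not separate the single-line states, at 29.5% in Runx1KO only and 26.9% in control only away from promoters (odds ratio 1.14, interval 0.899 to 1.43). The Ctcf motif was chosen for emphasis after its values had been seen.

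RNA-seq of the same lines gave TPM for 3 control and 3 Runx1KO libraries. In each library 12541 to 12695 of the listed genes reached 1 TPM, and libraries correlated within a line with r from 0.994 to 0.995. P-values compare libraries. Per the paper's methods these come from triplicate cultures, and the labels do not show whether the cultures came from separate sub-lines. Runx1 itself read 18.7, 15.6 and 17.9 TPM in control and 30.3, 30.1 and 28.5 TPM in Runx1KO libraries. A gene-level TPM counts exons outside the deleted one and so does not check the deletion. Of 10 markers of metanephric mesenchyme, 6 reached 1 TPM in some library, and Six2, Hoxd11, Wt1 and Cited1 did not. The summed level of the 10 was 509.0 to 520.8 TPM in control and 536.7 to 614.6 TPM in Runx1KO libraries, while of the 6 tested 3 were called lower and 0 higher (limma, median log2 fold change -0.88). Among all tested genes with a position 5.26% were called lower and 7.91% higher. Of 8 ureteric bud markers 3 reached 1 TPM (sum 74.8 to 82.0 and 61.4 to 62.5 TPM), of 6 endothelial markers 2 (5.8 to 7.4 and 1.0 to 1.3 TPM), and of 6 blood cell markers 0 (0.1 to 0.2 and 0.0 to 0.2 TPM). Their part in the results was not tested.

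Each Runx2-only region was assigned to the nearest start of a gene with a TPM value within 100 kb, which placed 6430 regions at 5350 genes. Of these genes 4478 had 1 region, 711 had 2 and 161 had 3 or more. With limma on log2(TPM+1), a gene was called when its fold change exceeded 2 and its adjusted p was under 0.05. Among the 11245 genes tested that have a position, 7.91% were called higher and 5.26% lower in Runx1KO cells. Of the 4641 tested genes with a Runx2-only region 228 were higher (4.91%, interval 4.33 to 5.57%) and 162 lower (3.49%, 3 to 4.06%), both under the background. The median log2 fold change was -0.06 in these genes and -0.06 over all. Genes with a stable region bound by Runx1 stood close to them, at 4.41% and 3.05%.

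The shares were lower for genes with a Runx2-only region at the promoter than for those with distal ones only. Genes with a stable region of any kind stood at 6.96% higher and 4.4% lower. Genes with other stable regions at the promoter were not set apart, so whether the low shares are particular to Runx2-only promoters was not tested. Of 3585 tested genes with a Runx2-only region within 1 kb of the start, 110 were higher (3.07%) and 89 lower (2.48%). Of 1056 genes whose regions all lay farther away, 118 were higher (11.2%, interval 9.41 to 13.2%) and 73 lower (6.91%). These values are like those of 3268 genes with stable regions of which none had a Runx peak (11.3% and 6.61%). Genes with a promoter region were also more highly expressed, with a median of 37.2 TPM in control against 25.6 TPM for the distal genes and 27.6 TPM over all genes tested. The part of expression level in these shares was not tested.

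Of the tested genes with a Runx2-only region 49.8% also had a closing or opening region assigned, against 43.5% of all tested genes. Without such genes 64 higher and 39 lower genes were left, which is 2.75% and 1.68% of 2328 tested, against 4.08% and 2.99% of all 6351 tested genes without such a region. Without the genes that also had a stable region bound by Runx1, 189 and 130 were left.

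The share of genes called higher differed with the cell line in which the promoter carried Runx2. Of 490 genes with a promoter region bound in control only, 34 were higher in Runx1KO cells (6.94%, interval 5.01 to 9.54%) and 10 lower (2.04%). Of 765 genes with a promoter region bound in Runx1KO only, 13 were higher (1.7%, 0.996 to 2.89%) and 26 lower (3.4%). The odds ratio of control only over Runx1KO only was 4.31 for higher genes (interval 2.25 to 8.26) and 0.592 for lower genes (0.283 to 1.24). Of 2371 genes with a promoter region bound in both lines 2.66% were higher and 2.24% lower. Against the 7.91% over all tested genes, which lies inside the interval of the control-only promoters, the shares of the Runx1KO-only and both-line promoters were lower. The difference between the single-line states for lower genes was within counting error. The same contrast among distal regions was within counting error, with odds ratios of 0.906 (interval 0.594 to 1.38) for higher and 1.08 (0.636 to 1.83) for lower genes. Without the genes that also had a closing or opening region the shares of higher genes were 4.13% (10 of 242) for control only and 2.04% (9 of 441) for Runx1KO only, with overlapping intervals (2.26 to 7.44% and 1.08 to 3.83%). Among genes of at least 5 TPM in control on average they were 3.17% (14 of 441) and 0.994% (7 of 704). These intervals (1.9 to 5.26% and 0.482 to 2.04%) overlapped only from 1.9 to 2.04%. Overlap of such intervals does not settle whether the shares differ, and no odds ratio was taken for these subsets.

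**Figure D5:**
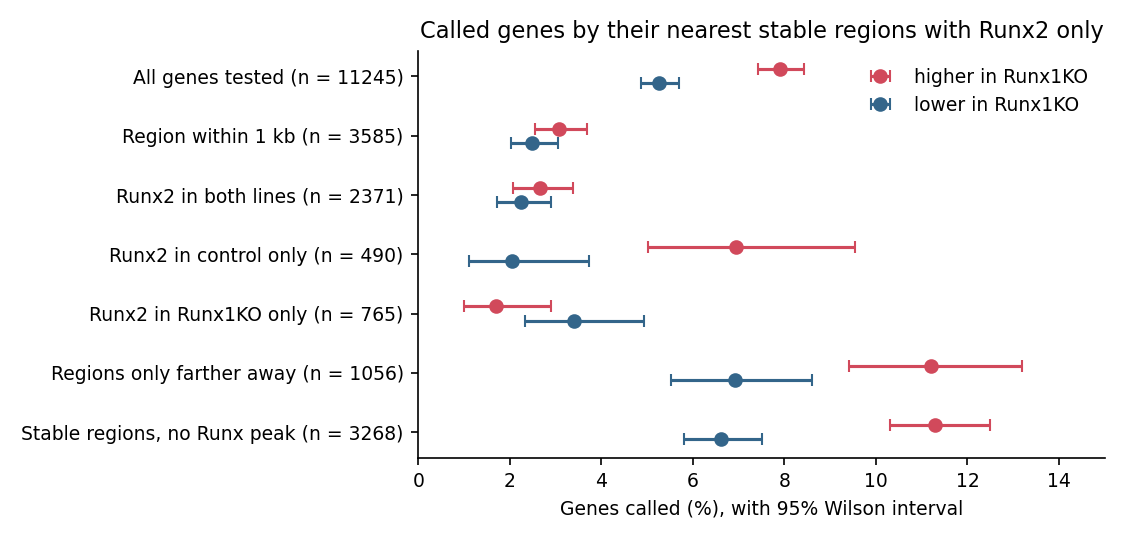
Percent of tested genes called higher or lower in Runx1KO cells (x axis, with 95% Wilson intervals) for all genes and for genes grouped by their Runx2-only regions (y axis, with n). Genes with a region within 1 kb sit at 3.07% and 2.48%, below the 7.91% and 5.26% of all genes, and genes with a control-only promoter region sit at 6.94% higher, near the share of all genes.

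Of the promoter genes that rose, the 8 with the largest fold changes are given here, and their mean level in control ran from 0.2 to 10.4 TPM. Mybpc2, a myosin-binding protein of fast skeletal muscle, read 0.2, 0.3 and 0.2 TPM in control and 43.5, 41.4 and 48.6 TPM in Runx1KO libraries (log2 fold change 5.20 ± 0.075 SE, limma adjusted p = 1.04e-08). Its promoter region carried Runx2 in control only. Sult2b1, a cholesterol sulfotransferase, read 0.1, 0.2 and 0.3 TPM against 20.9, 22.6 and 21.1 TPM (4.23 ± 0.080, adjusted p = 2.71e-08), also with a control-only peak. The libraries of the 2 lines did not overlap for either gene. Pdzd2 (22.2 ± 1.31 TPM in Runx1KO, 1.37 ± 0.153 TPM in control, SD, n = 3) and Sept4, a septin (8.60 ± 0.794 and 0.2 TPM), had control-only promoter regions as well, and Laptm5, a lysosomal membrane protein, had 1 region bound in both lines and 1 in control only (18.9 ± 3.17 and 0.2 TPM). Binding in both lines was found at Foxj1, the regulator of motile cilia, with 2.2, 2.9 and 2.4 TPM in control and 63.4, 66.0 and 59.4 TPM in Runx1KO libraries (4.19 ± 0.081, adjusted p = 3.03e-08). The same held for Snai3 (1.53 ± 0.751 and 30.3 ± 0.458 TPM). Bok, a relative of the Bcl2 family, carried Runx2 in Runx1KO only and rose from 10.4 ± 0.208 to 188.4 ± 3.8 TPM.

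Of the promoter genes that fell, the 8 with the largest fold changes are likewise given. Vcan, the matrix proteoglycan versican, read 18.9, 17.1 and 18.2 TPM in control and 0.0, 0.0 and 0.1 TPM in Runx1KO libraries (log2 fold change -4.21 ± 0.074 SE, limma adjusted p = 2.06e-08), with a Runx2 peak at its start in Runx1KO cells only. Loxl1, a lysyl oxidase that crosslinks elastin, read 67.5, 65.2 and 64.9 TPM against 3.0, 2.4 and 3.1 TPM (-4.13 ± 0.075, adjusted p = 2.34e-08), with Runx2 in both lines. The open regions at both starts were in the stable list, and the libraries of the 2 lines did not overlap. Rbpms2 (109.4 ± 1.56 to 16.8 ± 0.666 TPM) and Osmr, the oncostatin M receptor (23.8 ± 1.27 to 3.77 ± 0.208 TPM), carried the peak in Runx1KO only. Sdk1, an adhesion molecule (19.2 ± 0.666 to 1.87 ± 0.289 TPM), Gas1, a Hedgehog co-receptor (71.3 ± 2.06 to 11.6 ± 1.15 TPM), and Slc9a9, a sodium-proton exchanger (6.10 ± 0.529 to 0.167 ± 0.0577 TPM), carried it in both lines. Sorcs2 (27.0 ± 0.252 to 3.83 ± 0.0577 TPM) had 3 regions, 2 bound in both lines and 1 in control only.

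Genes with distal Runx2-only regions showed larger changes. Grb7, an adaptor of receptor tyrosine kinases, read 0.8 TPM in each control library and 251.5, 264.1 and 257.9 TPM in Runx1KO libraries (log2 fold change 7.17 ± 0.036 SE, limma adjusted p = 2.81e-10), with a control-only region 7578 bp from its start. Slc2a3, a glucose transporter, was listed at 0.0, 0.0 and 0.2 TPM against 94.9, 95.4 and 88.5 TPM (6.47 ± 0.084, adjusted p = 6.94e-09), with 2 regions bound in both lines, the nearer 3005 bp away. Cldn9, a tight junction protein (0.467 ± 0.153 and 70.5 ± 3.6 TPM), had 1 region bound in both lines, and Krt18, an epithelial keratin (0.133 ± 0.153 and 32.4 ± 1.88 TPM), Dmkn (0.433 ± 0.0577 and 30 ± 0.265 TPM) and Tmem102 (0.433 ± 0.115 and 22.6 ± 2.1 TPM) had a control-only region. Slc23a3 (0.8 ± 0.173 and 49.0 ± 2.91 TPM) and B4galnt3 (1.97 ± 0.551 and 75.3 ± 3.76 TPM) had a region bound in Runx1KO only.

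In the other direction, Nkx2-5, a homeobox factor best known from heart development, read 53.9, 57.1 and 60.3 TPM in control and 0.9, 1.3 and 1.3 TPM in Runx1KO libraries (log2 fold change -4.75 ± 0.088 SE, limma adjusted p = 2.53e-08), with a region bound in Runx1KO only 19937 bp from its start. Col6a1, a chain of collagen VI, read 324.2, 332.7 and 334.5 TPM against 32.4, 31.8 and 31.8 TPM (-3.33 ± 0.026, adjusted p = 1.31e-09), with a region bound in both lines 9088 bp away. Elfn1 (74.4 ± 5.79 to 2.07 ± 0.252 TPM) and Fmnl1, a formin (17.4 ± 1.25 to 0.967 ± 0.208 TPM), also had both-line regions. Rnf144a (13.7 ± 0.458 to 0.1 TPM) and Hcn2, a pacemaker channel (8.47 ± 1.01 to 0.0667 ± 0.0577 TPM), had control-only regions, Agpat4 (33.3 ± 0.751 to 1.67 ± 0.208 TPM) a Runx1KO-only region, and Palm2 (8.70 ± 0.361 to 0.133 ± 0.0577 TPM) 1 of each state.

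Runx2 has Runx2-only regions at its own gene. Of its 2 regions, both bound in both lines, the nearer lies 94 bp from a start. Runx2 read 6.0, 4.9 and 5.5 TPM in control and 3.9, 3.7 and 3.6 TPM in Runx1KO libraries, with no overlap and a log2 fold change of -0.45 ± 0.078 SE (limma adjusted p = 0.00175), under the fold limit of a call. Cbfb, the shared partner, has 1 region bound in both lines 314 bp from its start and read 78.2 ± 4.17 and 73.0 ± 1.47 TPM. Runx1 has no Runx2-only region, and Runx3, with none either, stayed at 0.0 to 0.3 TPM. Of 16 tested Runx factors and partners (Tle co-repressors, Smads, acetyltransferases) 9 had a Runx2-only region, and 0 of the 16 were called by limma, with a median log2 fold change of -0.10 in the 9 and -0.06 over all genes. Among all tested genes 7.91% were called higher and 5.26% lower, and the list was not tested against these shares.

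Other pathways are given by lists chosen with earlier results of these data known. Over all tested genes with a position 41.3% had a Runx2-only region, 7.91% were called higher and 5.26% lower. The counts of called genes in the lists were not tested against these shares. Of 16 tested genes of Tead factors and the Hippo pathway, which reads cell contact and tension, 12 had a Runx2-only region, among them Yap1, Wwtr1, Tead1 and Lats2, and 0 were called in either direction by limma (median log2 fold change 0.21 in the 12). Of 25 genes of focal adhesions and the actin cytoskeleton 20 had a region, of which 3 were higher, 1 lower and 16 not called (median -0.11). The laminin receptor chains Itga3 (84.6 ± 0.404 to 264.4 ± 8.70 TPM) and Itga6 (16.9 ± 0.950 to 52.5 ± 2.74 TPM) and the actin-binding Lasp1 (235.9 ± 8.61 to 474.3 ± 13.0 TPM) rose, and Tns1, a tensin (19.6 ± 1.18 to 7.37 ± 0.451 TPM), fell. Of 11 AP-1 proteins 8 had a region, of which 2 were higher (median 0.51). Fos read 400.1, 412.7 and 421.7 TPM against 1467.3, 1548.6 and 1485.1 TPM (log2 fold change 1.86 ± 0.031 SE, limma adjusted p = 1.72e-08), with 1 region bound in both lines and 2 in control only. Fosb rose from 215.3 ± 11.7 to 759.6 ± 36.2 TPM, with 1 control-only region.

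The counts in the next lists likewise stand beside 7.91% higher and 5.26% lower over all tested genes. Of 22 tested TGF-beta pathway genes 11 had a Runx2-only region, and 3 of these fell (median -0.07). They are the ligand Tgfb2 (17 ± 0.666 to 2.6 ± 0.361 TPM), the co-receptor Tgfbr3 (30.2 ± 1.27 to 10.1 ± 1.28 TPM) and Ltbp1, which binds the latent ligand (9.13 ± 0.252 to 1.93 ± 0.115 TPM), while Smad2, Smad3, Smad7 and Tgfb1 were not called. Of 19 listed osteoblast genes only 6 passed the expression filter and were tested, and 4 of these had a region. Spp1, osteopontin (175.8 ± 3 to 80.2 ± 1.86 TPM), and Postn, periostin (2.37 ± 0.153 to 0.233 ± 0.0577 TPM), fell, while Col1a1 and Vegfa were not called. The region lay 38620 bp from the start of Spp1 and 91629 bp from that of Postn. Of 7 mesenchymal factors and markers 2 had a region, and Twist2 fell (914.7 ± 23.2 to 350.8 ± 4.37 TPM). Of 18 tested epithelial junction genes and regulators 14 were higher, and 5 had a Runx2-only region. Those that rose among the 5 were Krt18, Grhl2 (0.1 to 4.97 ± 0.0577 TPM), the polarity gene Pard6b (24.4 ± 1.19 to 191.4 ± 7.30 TPM) and the protease gene Prss8 (1.33 ± 0.208 to 14.5 ± 0.907 TPM). Among kidney markers with a region, Eya1 fell (16.2 ± 0.379 to 5.87 ± 0.404 TPM), Wnt11 rose (0.0667 ± 0.0577 to 1.27 ± 0.115 TPM), and Pax2 and Sall1 were not called.

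Of the 6 genes with the most Runx2-only regions, 1 was called. Maml3, Slc1a3 and Tns3 had 6 regions each, the most of any gene. Slc1a3, a glutamate transporter, read 428.2, 429.5 and 443.3 TPM in control and 95.8, 97.3 and 98.5 TPM in Runx1KO libraries (log2 fold change -2.15 ± 0.025 SE, limma adjusted p = 4.91e-09). Maml3, a Notch co-activator, read 12.1 ± 1.18 and 8.4 ± 0.4 TPM, with no overlap of the libraries but under the fold limit of a call. Tns3, a tensin, read 86.4 ± 2.43 and 87.8 ± 4.19 TPM, with overlapping libraries. Bcor, Dlg1 and Irf2bp2, with 5 regions each, had log2 fold changes of -0.56, 0.50 and -0.23 and were not called. Of 145 tested genes with at least 3 regions, 4 were higher (2.76%, interval 1.08 to 6.88%) and 10 lower (6.90%, 3.79 to 12.2%). Over all tested genes the shares were 7.91% higher, above that interval, and 5.26% lower, inside it.

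The genes at 12 Runx2-only sites of high fold showed no common direction, and 1 of the 12 was called. Over all tested genes with a position 7.91% were called higher and 5.26% lower, and 12 genes are too few to be set apart from these shares. The control-only region with the highest fold, 7.33, was not among these sites. Dnajc10 read 140.0, 137.4 and 142.9 TPM in control and 139.3, 141.3 and 138.9 TPM in Runx1KO libraries, and Nptn 83.7 ± 2.86 and 83.4 ± 2.78 TPM, with overlapping libraries in both. Foxn2, next among both-line regions (8.72 in control, 8.78 in Runx1KO), read 12.9 ± 0.458 and 14.9 ± 0.265 TPM, and was not called. Bag5 read 6.30 ± 0.265 and 11.4 ± 0.451 TPM, with no overlap and a log2 fold change of 0.77 ± 0.054 SE (limma adjusted p = 1.6e-05), under the fold limit of a call. Among the genes at the named single-line sites, Pde4d rose from 1.13 ± 0.0577 to 5.53 ± 0.586 TPM. For this cAMP phosphodiesterase the log2 fold change was 1.61 ± 0.085 SE (limma adjusted p = 3.75e-06). Its Runx1KO-only region lay 65354 bp from its start. Wwc1 (log2 fold change 0.54), Mxra7 (-0.92), Asb2 (-0.27) and Akr1b3 (0.27), near control-only sites, and Cited2 (-0.76), Myo1h (-0.11) and Vcl (0.35), near Runx1KO-only sites, did not pass the fold limit, although Mxra7 and Cited2 had limma adjusted p-values of 1.64e-05 and 1.86e-05.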

How the data were processed

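ATAC-seq, ChIP-seq and RNA-seq of mK4 control and Runx1KO cells (3 libraries each) were used; ZebDKO libraries were not analysed here. Per the methods, the authors aligned reads to mm9 with STAR and called peaks with MACS2. ATAC-seq peaks had to occur in several replicates and were deposited as stable, closing and opening lists. Their log2 fold change and −log10 columns are the authors' own comparison and were not used beyond noting that the fold change column splits the lists at 2-fold, which the methods do not describe. ChIP-seq peaks were called on combined replicates, and peaks of the Runx1 antibody in Runx1KO cells were removed. The deposited lists give, by MACS2, the fold enrichment as a ratio to local background and the −log10 q-value. The methods name broad peaks, while the lists have the columns of narrow peaks. The authors deposited TPM per gene, scaled for length and library sum, so depth cannot be read from these files.

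Regions were intersected with bedtools 2.31.1 (1 bp) and annotated with GENCODE vM1 on mm9. Of 24953 genes listed with TPM, 20435 had a position there. Sequence was read from the mm9 genome. Shares carry Wilson 95% intervals and odds ratios Wald 95% intervals. Genes with at least 1 TPM in 3 of 6 libraries were fitted by limma 3.58.1 (R 4.3.3) on log2(TPM+1), with a trend and Benjamini-Hochberg adjustment, and called at a fold above 2 and an adjusted p under 0.05. A fold on this scale understates the change of low genes. Replicate numbers did not pair the samples, since their deviations correlated at -0.05, 0.01 and 0. The motif scan and the fit were checked on simulated data. The members, motifs and lists were chosen with earlier results of these data known. Named were 4 members of high fold per state, ranked by fold (for both lines, the lower of the folds), and their genes. The control-only ranking left out the member with the highest fold, 7.33. Also named were Runx factors and Cbfb, and the 8 genes most changed in each direction with promoter and with distal members. The 6 genes with most members and the called list genes with a member were named as well.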

Additional observations from a re-analysis of the deposited data

How the results depend on the processing

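Peak lists pool replicates and TPM keeps no read number, so neither gives replicate error or depth for the regions. Keeping only Runx2 peaks with a −log10 q of at least 2 gave 6558 regions and a median control fold of 4.15. Requiring 50% of the Runx2 peak inside the region, or no Runx1 peak within 500 bp, gave 6622 and 6673. The Runx motif share was 49.0% in the whole region and 18.4% around the summit, and the AP-1 share 24.7% and 5.15%. A promoter window of 2.5 kb gave 66.3%. A fold limit of 1.3 called 705 higher and 824 lower genes with a member. Without genes that had a closing or opening region, an alternative added after seeing the data, 64 and 39 remained called. Leaving out each library in turn gave 224 to 231 higher and 156 to 165 lower genes. The replicate block gave 228 and 163 and changed no call of a named gene. Other pseudocounts, filters, scalings, tables and gene assignments stayed within 1.5 times. Lasp1 fell under the fold limit with quantile normalization (log2 fold change 1.0), without control replicate 3 (0.97) and without Runx1KO replicate 1 (0.98), and Wnt11 with quantile normalization (0.98).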
